A study of Mus musculus with 7 samples.

Results

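Chemokines and their receptors were 53 of the 22180 genes measured on 1-colour arrays in blastemas and uninjured digits of C57Bl/6 mice. The members are the genes whose symbols name them as CC, CXC or CX3C chemokines, as receptors of these, or as atypical chemokine receptors, 33 ligands and 20 receptors in all. Only probe sets annotated with 1 gene symbol were used, and where a gene had several, the brightest over the 7 arrays stood for it. Blastemas were taken from regenerating digits 2 weeks after amputation (n = 3), and digits without injury were the comparison (n = 4). A blastema is the mass of cells that forms at an amputated digit tip and rebuilds it. The labels call the samples of each group separate biological replicates. The sources used here do not give the sex or age of the mice, any pooling, or how much tissue was taken. No transgene or other treatment is named for either group.

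Chemokines are small secreted proteins that guide migrating cells, above all leukocytes, along gradients. They are named for the spacing of their first cysteines, and most act through receptors coupled to inhibitory G proteins. Atypical receptors bind chemokines without that signalling and remove or transport them. In skin and bone some chemokines are made constitutively by epithelium and stroma, others are induced by injury, and cells of the monocyte lineage, osteoclasts included, both make and sense them.

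Levels are the authors' log2 values from RMA, a method that makes the arrays comparable and gives 1 value per probe set. Differences are given on the log2 scale as blastema minus uninjured digit. A gene is said to have risen or fallen where limma, fitted over all 22180 genes, gave a Benjamini-Hochberg adjusted p below 0.05. The array medians lay between 5.53 and 5.58, and the small number of arrays limits the precision. Tissue markers were then checked. The blastema arrays had the bone matrix gene Ibsp at 12.13 ± 0.32 (SD, n = 3), against 6.41 ± 1.29 (SD, n = 4) in uninjured digit. The epidermal keratin gene Krt14 was at 11.70 ± 0.11 in blastema and 11.78 ± 0.17 in uninjured digit. In the table as a whole 2139 genes passed (9.64%), 1105 higher (4.98%) and 1034 lower (4.66%) in the blastema. With the arrays scaled to 5 reference genes instead, the median of all genes was -0.15 in place of -0.01 and 604 genes were higher against 1332 lower. The share of higher genes among the calls was then 31.2%, in place of 51.7%. The reference genes were themselves not flat. Of the 5, 4 were above 0 and 1 below, 0 passed, and their median was 0.20. Their mean level was 9.23 to 9.38 on the blastema arrays. It was 8.95 on uninjured array 1 and 9.24 to 9.28 on the other uninjured arrays.

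Of the 53 members 5 rose, 1 fell and 47 did not pass, so 11.3% of the members were called beside 9.64% of all genes. The ligands Ccl9, Cxcl14 and Cxcl11 and the receptors Ccr1 and Cxcr4 rose, and the ligand Ccl6 fell. Ccl9 was the member with the largest difference in these arrays, 1.74 on the log2 scale, and the other rises were of 0.41 to 0.80. The groups did not overlap in 11 members, beside 21% of all genes. Of these, 8 were higher (10.4% of all genes) and 3 lower in the blastema (10.6% of all genes). At an unadjusted p below 0.05 there were 16 members, beside 24.9% of all genes, with 13 higher (12.2% of all genes) and 3 lower (12.7% of all genes). The median log2 fold change of the members was 0.08, against -0.01 over all genes, and 34 of the 53 were above 0. Scaling to the reference genes lowers every gene by the same 0.14, which puts the members' median at -0.06 and leaves 23 above 0. With directions pooled, the shares of members called or separated were near those of the whole table. By direction, 9.43% of members rose and 1.89% fell, beside 4.98% and 4.66% of all genes. At an unadjusted p below 0.05, 24.5% of members were higher and 5.66% lower, beside 12.2% and 12.7% of all genes. These are counts of 1 to 13 members, and the difference from all genes was not tested. In bulk tissue a lower value can come from fewer cells of a type or from less RNA per cell, and the arrays cannot tell these apart.

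**Figure D1:**
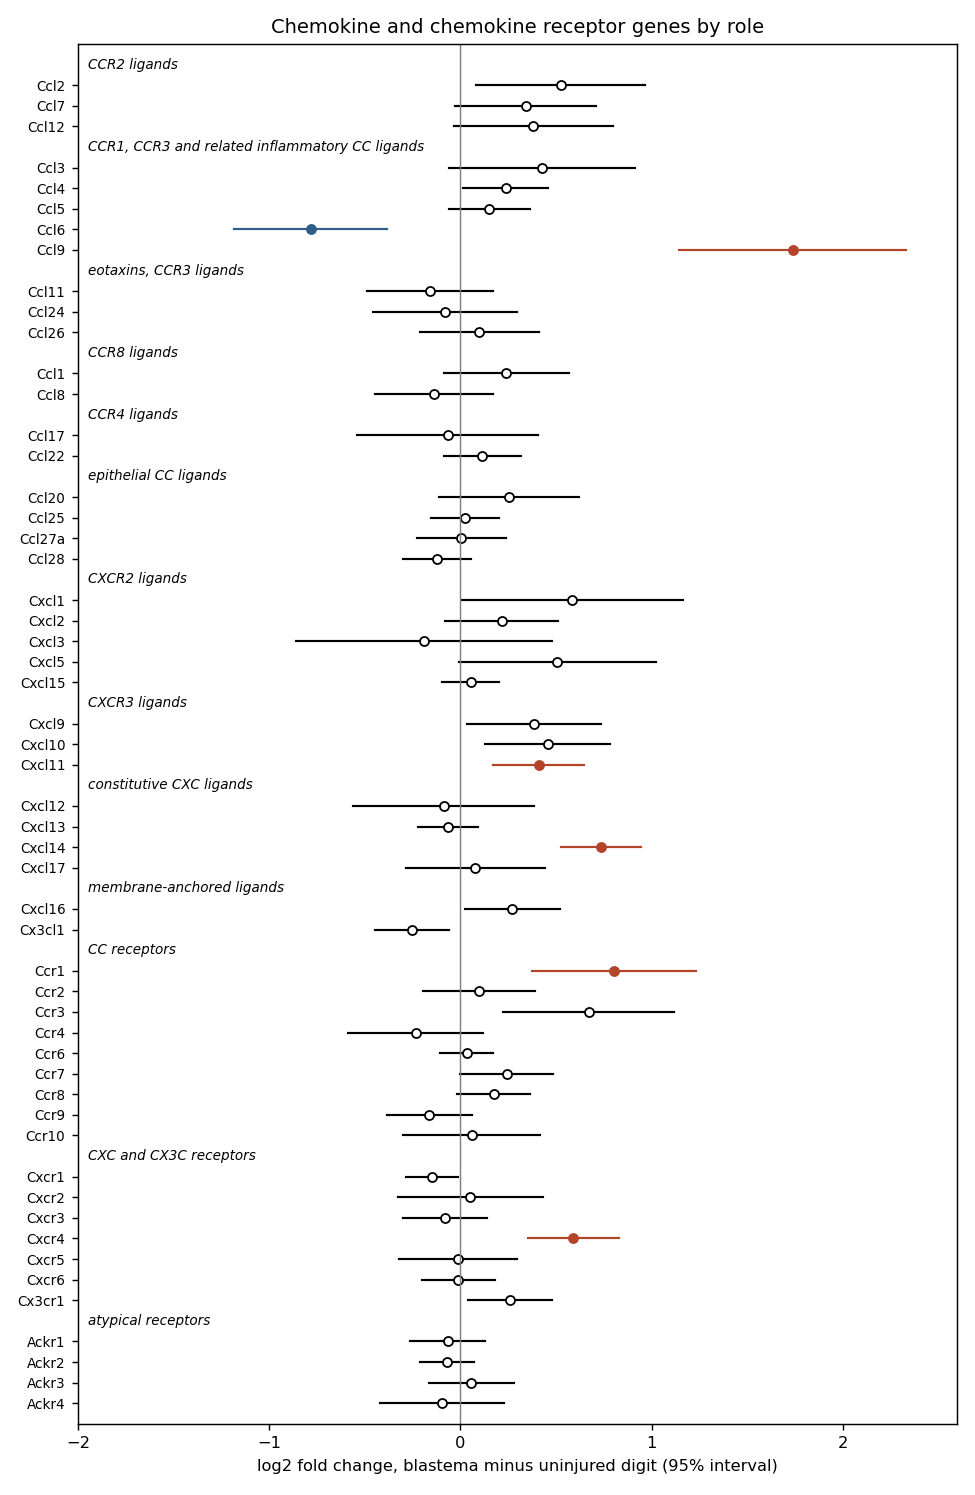
Log2 fold change (blastema minus uninjured digit) of the 53 members with its 95% interval from limma, grouped by role. Filled points passed an adjusted p of 0.05, red for higher and blue for lower in blastema. Open points, 47 in all, did not pass, and Ccl9 at 1.74 and Ccl6 at -0.78 lie farthest from 0.

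As a guide to background signal, 95% of 1088 olfactory receptor genes had a mean level below 5.51. Of the members, 25 had a mean above this level in either group (47.2%), compared with 60.3% of all genes. The other 28 lay below it in both groups, and 2 of these, Ccr1 and Cxcl11, passed the test. Hybridisation differs between probe sets, so a level under this line does not show that a gene is silent. Of the members 27 had the same value on at least 2 arrays, as did 52.9% of all genes.

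Ccl9 encodes a CC chemokine that in the mouse is made by osteoclasts and myeloid cells and binds CCR1. It was at 7.30, 8.11 and 8.39 on the blastema arrays, against 6.04, 6.51, 6.09 and 6.14 on the uninjured arrays. Every blastema array lay above every uninjured array, and blastema array 1 was the lowest of its group. The means were 7.93 ± 0.57 (SD, n = 3) in blastema and 6.20 ± 0.22 (SD, n = 4) in uninjured digit. They differed by 1.74 ± 0.25 (SE), which is 3.33-fold (limma adjusted p = 0.00806). Ccl9 passed under all 16 alternative settings, with log2 fold changes of 1.51 to 2.06.

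Ccr1, the receptor gene for Ccl9 and several other inflammatory CC ligands, rose as well. Its levels were 4.76, 5.24 and 5.21 on the blastema arrays, against 4.34, 4.60, 4.21 and 3.91 on the uninjured arrays. All 7 values lay under the background level, although the groups did not overlap. The difference was 0.80 ± 0.18 (SE), which is 1.74-fold (limma adjusted p = 0.0366). The difference was 0.68 to 0.96 over the omissions of 1 array, and the call held without uninjured array 2 (adjusted p = 0.0405) or blastema array 1 (0.0286). Ccr1 did not pass without uninjured array 1, 3 or 4 (adjusted p = 0.071, 0.102 and 0.0723) or blastema array 2 or 3 (0.135 and 0.143). It also did not pass without both arrays numbered 1 (0.0596) or when scaled to the reference genes (0.0515).

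Ccl6, another CC chemokine gene of mouse myeloid cells, fell. It stands in the same role group as Ccl9, that of CCR1, CCR3 and related inflammatory CC ligands. The levels of Ccl6 were 6.25, 7.01 and 6.69 on the blastema arrays, against 7.55, 7.45, 7.47 and 7.25 on the uninjured arrays. Every blastema array lay below every uninjured array, and blastema array 1 was the lowest of all. The means were 6.65 ± 0.38 (SD, n = 3) in blastema and 7.43 ± 0.13 (SD, n = 4) in uninjured digit. They differed by -0.78 ± 0.17 (SE), which is 1.72-fold lower (limma adjusted p = 0.0316). Ccl6 did not pass without any single uninjured array (adjusted p = 0.0585 to 0.0911), without blastema array 3 (0.107) or without both arrays numbered 1 (0.0742). Without blastema array 1, the lowest value, the log2 fold change was -0.59 and the gene passed (adjusted p = 0.0386).

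Ccl9 and Ccl6 are next to each other in the order of protein-coding genes on chromosome 11, in a run of 5 members, Ccl5, Ccl9, Ccl6, Ccl3 and Ccl4. Within this run the neighbours Ccl9 and Ccl6 moved in opposite directions. The other 3 did not pass, with log2 fold changes of 0.15 for Ccl5, 0.43 for Ccl3 and 0.24 for Ccl4. A similar patchwork held on chromosome 9, where Ccr9, Cxcr6, Xcr1, Ccr1, Ccr1l1, Ccr3 and Ccr2 follow one another with few genes between. There Ccr1 rose, and so did Xcr1, a receptor gene of dendritic cells that is not among the 53 members (0.68 ± 0.12 SE, limma adjusted p = 0.0133). Ccr3, a receptor gene known from eosinophils, was at 3.50, 3.91 and 4.22 on the blastema arrays, against 3.38, 3.44, 3.04 and 2.98 on the uninjured arrays. Its groups did not overlap, but its difference of 0.67 ± 0.19 (SE) did not pass (adjusted p = 0.0751), and all its values were under the background level. Ccr2 (0.10), Ccr9 (-0.16), Cxcr6 (-0.01) and Ccr1l1 (-0.08) did not pass either.

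The 250 bases before the RefSeq start site are given for the 4 called members with the largest absolute change that have such a window, Ccl9, Ccr1, Ccl6 and Cxcl14, because Ccl9 and Ccl6 are neighbours that moved apart while Ccl9, Ccr1 and Cxcl14 rose. They come from RefSeq on the mouse build GRCm38.p6 and run 5′ to 3′ on the strand of the gene, with capitals marking matches to the motifs named after them.
Ccl9, chr11:83578637-83578886, minus strand: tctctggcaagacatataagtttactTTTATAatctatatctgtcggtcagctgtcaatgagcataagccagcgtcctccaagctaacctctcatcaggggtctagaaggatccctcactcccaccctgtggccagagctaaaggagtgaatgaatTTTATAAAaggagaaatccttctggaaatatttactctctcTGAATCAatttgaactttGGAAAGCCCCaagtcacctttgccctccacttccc
Ccl6, chr11:83593088-83593337, minus strand: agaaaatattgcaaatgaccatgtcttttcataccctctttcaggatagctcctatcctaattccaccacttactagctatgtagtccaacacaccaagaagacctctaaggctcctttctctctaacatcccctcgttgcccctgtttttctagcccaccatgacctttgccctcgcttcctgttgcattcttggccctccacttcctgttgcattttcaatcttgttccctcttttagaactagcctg
Ccr1, chr9:123968693-123968942, minus strand: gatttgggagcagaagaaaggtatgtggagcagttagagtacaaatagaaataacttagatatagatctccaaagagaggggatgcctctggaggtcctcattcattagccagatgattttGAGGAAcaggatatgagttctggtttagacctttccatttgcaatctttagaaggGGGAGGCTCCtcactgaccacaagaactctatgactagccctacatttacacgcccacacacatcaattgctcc
Cxcl14, chr13:56296552-56296801, minus strand: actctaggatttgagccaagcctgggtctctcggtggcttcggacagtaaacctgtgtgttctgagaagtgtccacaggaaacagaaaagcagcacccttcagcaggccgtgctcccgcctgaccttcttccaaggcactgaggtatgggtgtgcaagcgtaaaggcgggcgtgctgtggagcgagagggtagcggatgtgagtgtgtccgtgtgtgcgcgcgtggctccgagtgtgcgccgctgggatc
The motifs were searched on both strands, and a base could belong to several matches. The AP-1 motif TGANTCA had 1 match before Ccl9, from 53 to 47 bases upstream of the start, and none before the other 3 genes. It was in 6.75% of 32851 such windows of all genes and in 5 of the 43 windows that belong to members. The TATA box letters TATAAA had 3 matches before Ccl9, 2 of them overlapping on opposite strands, and occurred in 12.4% of all windows and 12 of the members' windows. The PU.1 core GAGGAA had 1 match before Ccr1, from 129 to 124 bases upstream, and occurred in 23.3% of all windows and 13 of the members'. The kappaB consensus, in its degenerate form, had 1 match before Ccl9, from 35 to 26 bases upstream on the reverse strand, and 1 before Ccr1, from 74 to 65 bases upstream. It occurred in 7.25% of all windows and 11 of the members'. This loose form was taken up after a stricter kappaB pattern had been searched and had matched before none of the 4 genes. An interferon-element core was searched at first as well and was dropped after the first result was seen. The matches given here thus depend on the patterns chosen. The Ccl6 and Cxcl14 windows held no match to these motifs in the forms searched. A match in such a window is a run of letters and shows no binding.

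Cxcl14, a CXC chemokine made constitutively by skin epithelium and stromal cells, rose with the smallest standard error of the called members. It was at 9.83, 9.85 and 9.92 on the blastema arrays, against 9.32, 9.16, 8.98 and 9.06 on the uninjured arrays. The blastema arrays lay within a narrow band above all uninjured arrays. The means were 9.87 ± 0.05 (SD, n = 3) in blastema and 9.13 ± 0.14 (SD, n = 4) in uninjured digit. They differed by 0.73 ± 0.09 (SE), which is 1.66-fold (limma adjusted p = 0.00449). Cxcl14 passed in 15 of 16 alternative settings, among them each omission of arrays and both scalings, with adjusted p-values of 0.00178 to 0.0557 over all of them.

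Cxcr4, the receptor gene for Cxcl12 that governs retention and homing of blood-forming and immune cells, rose. It was at 6.20, 6.54 and 6.40 on the blastema arrays, against 5.76, 5.96, 5.67 and 5.77 on the uninjured arrays. All blastema arrays were above all uninjured arrays. The difference was 0.59 ± 0.10 (SE), which is 1.51-fold (limma adjusted p = 0.0138). The call of Cxcr4 was lost when blastema array 2 (adjusted p = 0.0563) or 3 (0.0655) was left out, and when scaled to the reference genes (0.0679).

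Its ligand gene Cxcl12, a stromal chemokine, was at 7.41, 7.67 and 7.79 on the blastema arrays, against 7.61, 7.94, 7.24 and 8.06 on the uninjured arrays. The uninjured arrays spread over a wider range that took in all the blastema arrays. The difference was -0.09 (95% interval -0.56 to 0.39, limma adjusted p = 0.83). Ackr3, the atypical receptor gene that clears Cxcl12, was at 7.02, 7.01 and 6.86 in blastema, against 7.04, 6.97, 6.92 and 6.70 in uninjured digit. The groups overlapped, and the difference was 0.06 (-0.17 to 0.28, adjusted p = 0.759). Of the other atypical receptors, Ackr2, which clears inflammatory CC chemokines, differed by -0.07 (adjusted p = 0.533), and Ackr1 (-0.07) and Ackr4 (-0.10) were under the background level.

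**Figure D2:**
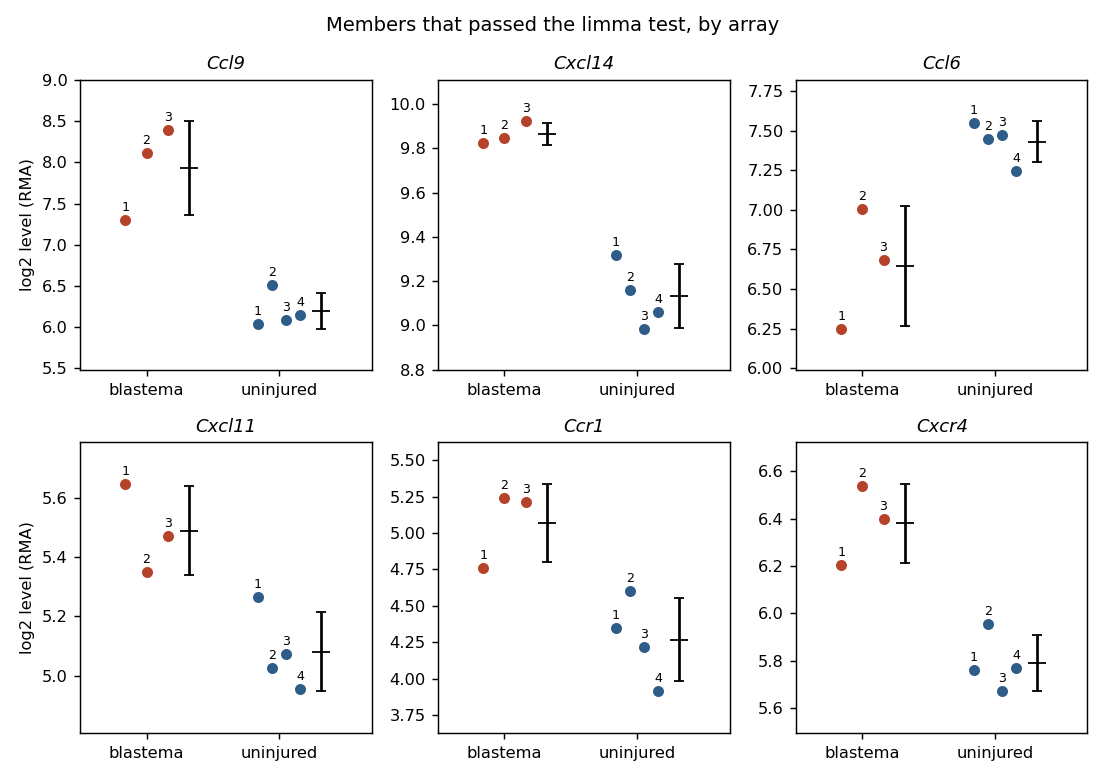
Log2 level of the 6 members that passed, each dot 1 array with its replicate number, and bars with the mean ± SD (blastema n = 3, uninjured digit n = 4). Each panel has its own axis, which does not start at 0. In every panel the groups do not overlap, with Ccl6 alone lower in blastema.

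The CXCR3 ligands Cxcl9, Cxcl10 and Cxcl11, which interferon induces and which draw activated T cells, were all higher in the blastema at an unadjusted p below 0.05. Only Cxcl11 passed over all genes. It was at 5.65, 5.35 and 5.47 on the blastema arrays, against 5.27, 5.03, 5.07 and 4.96 on the uninjured arrays. The log2 fold change was 0.41 ± 0.10 (SE, limma adjusted p = 0.048), with group means under the background level. RefSeq lists Cxcl11 of this C57BL/6J genome as a transcribed pseudogene, unlike the other 52 members, so the probe set reports a transcript that RefSeq gives no protein. Of the single-array omissions only that of uninjured array 1 kept the call (adjusted p = 0.0316), and the others gave 0.0704 to 0.139. Scaling to the reference genes gave a log2 fold change of 0.27 (adjusted p = 0.383).

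Cxcl10 was at 5.80, 5.24 and 5.48 in blastema, against 5.16, 5.17, 4.99 and 4.89 in uninjured digit. The groups did not overlap, but the difference of 0.46 ± 0.14 (SE) did not pass (adjusted p = 0.0917). Cxcl9 differed by 0.38 ± 0.15 (SE, adjusted p = 0.167), with blastema array 1 equal to uninjured array 1 at 4.91. Their receptor gene Cxcr3 differed by -0.08 (adjusted p = 0.642). Of 13 measured interferon-responsive genes 0 rose and 0 fell in limma (2 at an unadjusted p below 0.05), with a median of -0.04. Of these 13, 8 lay under the background level in both groups. The smallest limma p was that of the transcription factor gene Irf1 (0.26, adjusted p = 0.0816).

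The monocyte-attracting ligands of CCR2 gave no call. Ccl2 was at 5.37, 5.66 and 6.23 on the blastema arrays, against 5.11, 5.37, 5.22 and 5.21 on the uninjured arrays. Blastema array 3 was high, and blastema array 1 was level with uninjured array 2. The difference was 0.52 ± 0.19 (SE, 95% interval 0.08 to 0.97, adjusted p = 0.139), and without blastema array 1 it was 0.72 and passed (adjusted p = 0.0482). Ccl7 (0.34, adjusted p = 0.237) and Ccl12 (0.38, adjusted p = 0.24) did not pass. The receptor gene Ccr2, a marker of recruited monocytes, was at 5.08, 5.23 and 5.09 in blastema, against 5.17, 5.18, 5.09 and 4.70 in uninjured digit. Its groups overlapped under the background level, with a difference of 0.10 (-0.20 to 0.39, adjusted p = 0.687).

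The 5 members grouped here as neutrophil-attracting ligands of CXCR2 did not pass, and all of their means were under the background level. Cxcl1 was at 5.09, 4.93 and 5.88 in blastema, against 4.83, 4.87, 4.31 and 4.85 in uninjured digit. The groups were apart by a small gap only, with blastema array 3 high and uninjured array 3 low, and the difference of 0.59 ± 0.25 (SE) did not pass (adjusted p = 0.197). Cxcl5 differed by 0.51 (adjusted p = 0.209), Cxcl2 by 0.22, Cxcl15 by 0.05 and Cxcl3 by -0.19. The receptor gene Cxcr2 was at 6.53, 6.70 and 6.90 in blastema, against 6.42, 6.48, 6.70 and 7.03 in uninjured digit. The groups overlapped throughout, and the difference was 0.05 (-0.33 to 0.43, adjusted p = 0.875). Cxcr1 was lower in all blastema arrays by a small step, -0.15 ± 0.06 (SE), and did not pass (adjusted p = 0.17).

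Of the remaining inflammatory CC ligands, Ccl5, which draws T cells and monocytes, was at 5.73, 5.67 and 5.67 in blastema, against 5.36, 5.59, 5.72 and 5.48 in uninjured digit. The difference of 0.15 (-0.06 to 0.36, adjusted p = 0.359) was within the spread of the uninjured arrays. Ccl3 (0.43, adjusted p = 0.256) and Ccl4 (0.24, adjusted p = 0.174), both products of activated macrophages, did not pass. The eotaxin genes Ccl11, Ccl24 and Ccl26, which attract eosinophils, differed by -0.16, -0.08 and 0.10. The CCR4 ligand genes Ccl17 and Ccl22 differed by -0.07 and 0.12, and Ccl1 and Ccl8, which bind CCR8 in the mouse, by 0.24 and -0.14. Adjusted p-values of these 7 genes lay between 0.341 and 0.87.

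The epithelial CC ligands, which place lymphocytes in skin and mucosa, gave no call. Ccl27a, the keratinocyte ligand of CCR10, was at 5.60, 5.42 and 5.25 in blastema, against 5.39, 5.32, 5.39 and 5.57 in uninjured digit. The groups overlapped fully, with a difference of 0.00 (-0.23 to 0.24, adjusted p = 0.985). The group means were under the background level. Probe sets that list further genes besides Ccl27a gave the same values on every array, so this signal may not be specific to Ccl27a. A dimmer probe set of the same gene differed by -0.19. Ccl20 (0.25), Ccl25 (0.02) and Ccl28 (-0.12) did not pass, nor did their receptor genes Ccr6 (0.03), Ccr9 (-0.16) and Ccr10 (0.06). The lymphoid CXC ligand gene Cxcl13 was at 5.31, 5.31 and 5.23 in blastema, against 5.31, 5.30, 5.31 and 5.48 in uninjured digit. Its level was nearly flat under the background level (-0.07, adjusted p = 0.598), and its receptor gene Cxcr5 differed by -0.01.

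Both ligands that are made as membrane-anchored proteins were above the background level. Cx3cl1, whose product holds and attracts cells that carry CX3CR1, was at 6.54, 6.75 and 6.53 in blastema, against 6.93, 6.79, 6.94 and 6.78 in uninjured digit. The groups did not overlap, but the difference of -0.25 ± 0.08 (SE, 95% interval -0.45 to -0.06) did not pass (adjusted p = 0.109). The receptor gene Cx3cr1, found in monocytes and resident macrophages, was at 6.75, 7.04 and 6.92 in blastema, against 6.62, 6.50, 6.71 and 6.75 in uninjured digit. Its difference ran the other way at 0.26 ± 0.09 (SE, adjusted p = 0.139), with blastema array 1 and uninjured array 4 level. Cxcl16 differed by 0.27 ± 0.11 (SE, adjusted p = 0.165), and its receptor gene Cxcr6 by -0.01. The receptor genes not named so far, Ccr4 (-0.23), Ccr7 (0.24) and Ccr8 (0.17), did not pass, and neither did the mucosal ligand gene Cxcl17 (0.08).

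**Figure D3:**
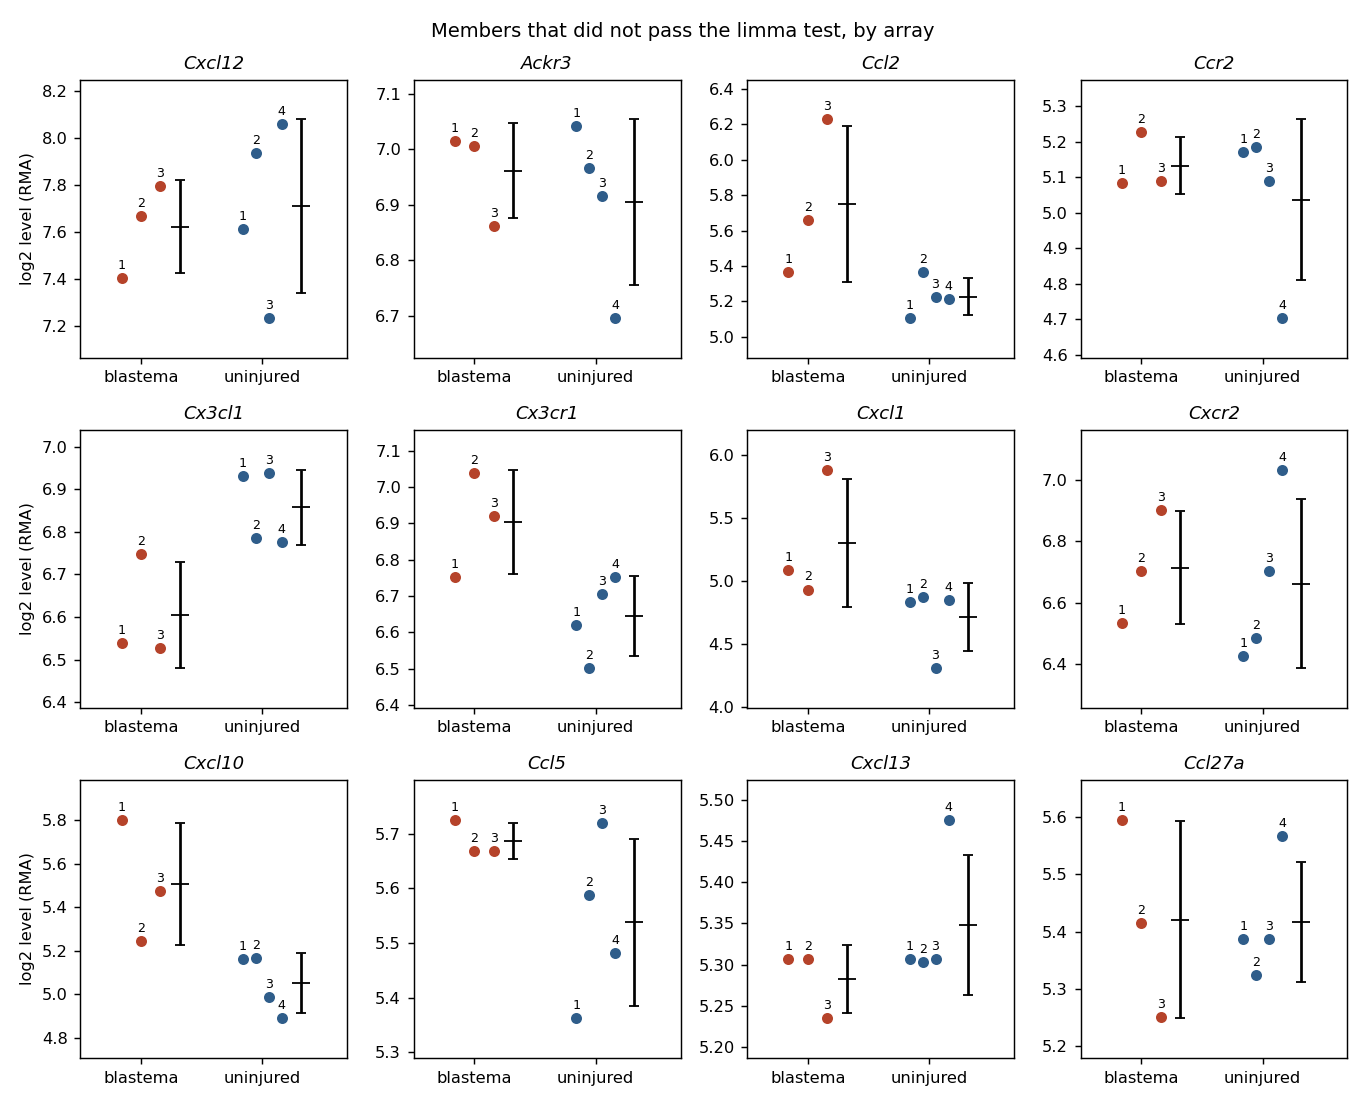
Log2 level of 12 members that did not pass, each dot 1 array with its replicate number, and bars with the mean ± SD (blastema n = 3, uninjured digit n = 4). Each panel has its own axis, which does not start at 0. The groups overlap in every panel except those of Cx3cl1, Cxcl1 and Cxcl10.

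Markers of the cells that could carry these genes moved with some of them. Of 8 osteoclast markers 7 rose and 0 fell, led by the proton pump subunit gene Atp6v0d2 (3.84) and the protease gene Ctsk (3.32). Their mean level was 6.76 to 7.39 on the blastema arrays and 5.53 to 5.70 on the uninjured arrays. Of 14 macrophage and monocyte markers 6 rose and 0 fell, led by Ms4a7 (1.66) and the complement gene C1qb (1.23). At an unadjusted p below 0.05, 8 were higher and 1 was lower, Cd163 (-0.28, limma adjusted p = 0.138). The mean level of this list was 6.45 to 6.83 in blastema and 5.98 to 6.23 in uninjured digit. Ccl6 fell while these lists were higher. Blastema array 1 was the lowest of its group in both lists and in the fibroblast, osteoblast and endothelial lists described next. It was also the lowest in Ccl9, Ccr1, Cxcr4, Cxcl14 and Ccl6. In Cxcl11, the remaining called member, blastema array 1 was instead the highest of its group (5.65, 5.35 and 5.47). The keratinocyte list was lowest on blastema array 3 (10.65). The part of osteoclasts and macrophages in the differences of Ccl9, Ccr1, Cxcr4 and Ccl6 was not tested.

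Of 10 fibroblast and limb mesenchyme markers 7 rose and 0 fell, led by the collagen genes Col1a1 (3.48) and Col1a2 (3.35), with a mean level of 9.78 to 10.28 in blastema and 7.89 to 8.69 in uninjured digit. All 6 osteoblast markers rose, led by Ibsp (5.73) and Alpl (3.44), with 8.32 to 8.82 in blastema and 5.18 to 6.09 in uninjured digit. Of 8 keratinocyte markers 2 fell, the cornified envelope genes Lor (-0.87) and Ivl (-0.58), with a mean level of 10.65 to 10.81 in blastema and 10.91 to 10.98 in uninjured digit. Of 9 endothelial markers 2 rose, Cdh5 (1.28) and Kdr (0.82), with 6.52 to 7.07 in blastema and 5.96 to 6.51 in uninjured digit. The part of these cells in the differences of Cxcl14 and Cxcr4 was not tested.

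Lists of other leukocytes gave few calls. None of 14 neutrophil genes passed in limma (2 at an unadjusted p below 0.05), at a mean level of 4.96 to 5.32 in blastema and 4.81 to 5.04 in uninjured digit. The smallest p in that list was that of S100a8 (1.83, adjusted p = 0.101). It was at 6.39, 8.66 and 9.02 on the blastema arrays, against 5.97 to 6.39 on the uninjured arrays. Lcn2 (0.92, adjusted p = 0.105) and S100a9 (0.98, adjusted p = 0.267) were also higher and did not pass. The other 11 genes lay under the background level in both groups. Among them was the defining gene Ly6g, at 3.71 ± 0.20 (SD, n = 3) in blastema and 4.03 ± 0.40 (SD, n = 4) in uninjured digit. None of 9 T cell, 7 B cell, 5 NK cell, 7 mast cell or 6 erythroid and platelet genes passed in limma. Most of them lay under the background level in both groups. These were 6 T cell, 6 B cell, 4 NK cell, 6 mast cell and 4 erythroid and platelet genes, so these lists could show little change. At an unadjusted p below 0.05 there was 1 T cell gene, 1 mast cell gene and 0 in the other 3 lists. The smallest p in those lists were those of Cd3e (0.15, adjusted p = 0.196), Blk (0.16, 0.226), Prf1 (-0.07, 0.486), Mcpt4 (-0.70, 0.0888) and Gp9 (-0.15, 0.377). Of 6 genes listed for the gamma-delta T cells of epidermis 1 rose, the receptor chain gene Fcer1g (1.32), which myeloid cells also express. Of 8 dendritic and Langerhans cell genes 1 rose, Xcr1, while the Langerhans marker Cd207 differed by -0.14 (adjusted p = 0.297).

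**Figure D4:**
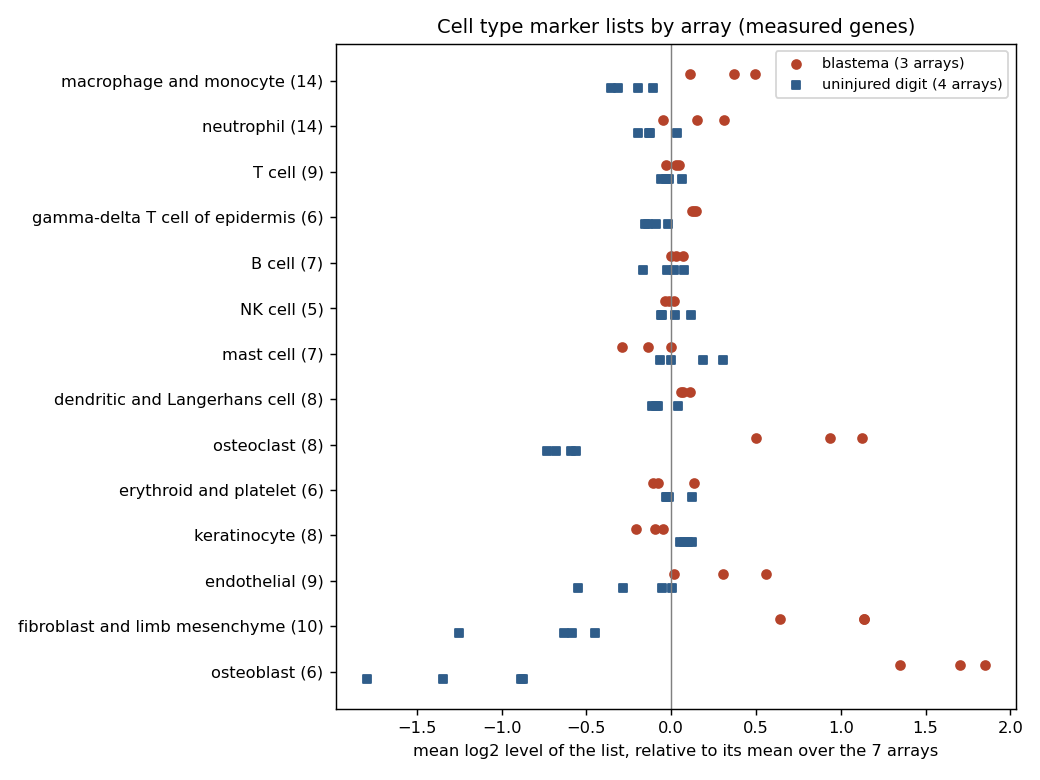
Mean log2 level of each marker list on each array, relative to the list's mean over the 7 arrays, with the number of measured genes in brackets (blastema circles, uninjured digit squares). The osteoclast, osteoblast, fibroblast and macrophage lists are higher on all 3 blastema arrays. So are the endothelial, gamma-delta T cell, and dendritic and Langerhans cell lists. The keratinocyte list is lower on all 3. The neutrophil, T cell, B cell, NK cell, mast cell, and erythroid and platelet lists overlap.

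Genes that act around the chemokines were compared with the members in the same limma fit. Of 23 genes of chemokine receptor signalling 6 rose and 0 fell, with a median of 0.22, beside 9.64% of all genes called. Elmo1 (0.95 ± 0.23 SE) and Rac2 (0.91 ± 0.14 SE), which link receptors to the moving cytoskeleton, rose most. The inhibitory G protein subunit gene Gnai2, named after its value was seen, was among them (0.76, adjusted p = 0.00672). Of 17 genes for chemokine cleavage and matrix presentation 7 rose and 0 fell, with a median of 0.26, led by the gelatinase genes Mmp9 (4.59 ± 0.32 SE) and Mmp2 (2.14 ± 0.18 SE), whose products can trim chemokines. Dpp4, named after its value was seen, encodes a protease that inactivates Cxcl12 and did not pass (-0.68, adjusted p = 0.0949).

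Of 19 cytokine genes known to induce or restrain chemokines 1 rose, Tgfb1 (1.60 ± 0.19 SE), and 2 fell, Il18 (-0.98 ± 0.13 SE) and Il1a (-0.60), with a median of 0.00. The inducers Tnf (0.16, adjusted p = 0.312), Il1b (0.87, adjusted p = 0.122) and Ifng (0.12, adjusted p = 0.28), named after their values were seen, did not pass. Of 17 other chemoattractant and receptor genes, S1pr1 (1.28 ± 0.22 SE) and Xcr1 rose and Mif (-0.54, adjusted p = 0.0215), named after its value was seen, fell, with a median of 0.15. The platelet chemokine genes Pf4 (-0.15) and Ppbp (0.08), CXC chemokines by protein but not by symbol, did not pass.

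**Figure D5:**
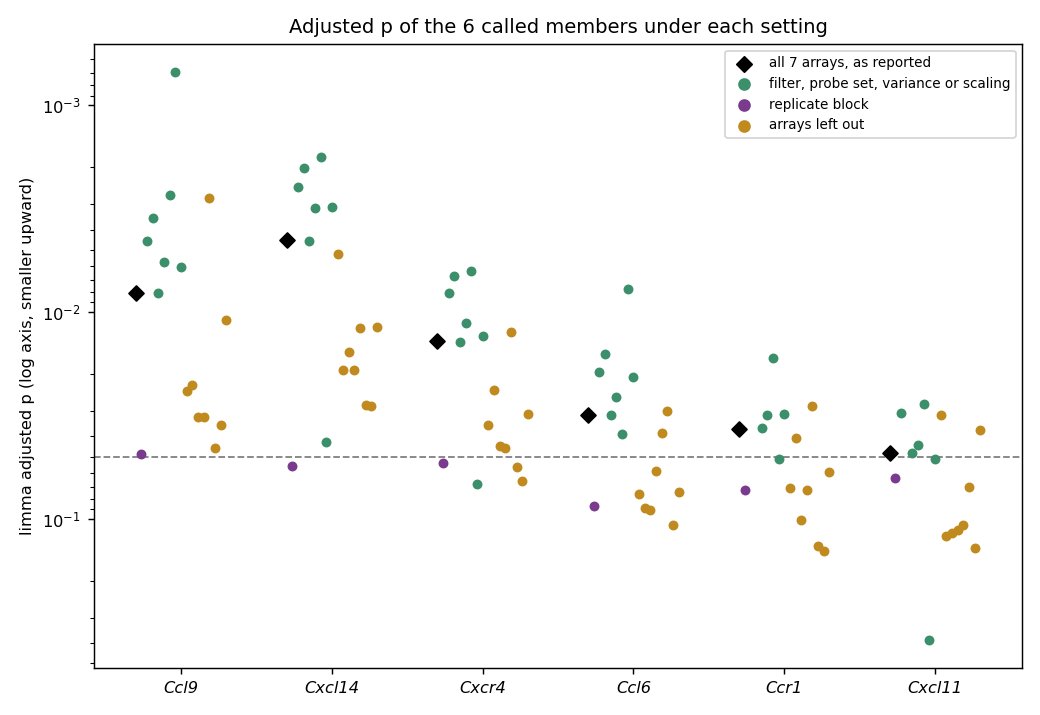
Limma adjusted p of the 6 called members, with all 7 arrays (diamonds) and under each alternative setting (dots), on a log axis with smaller values upward. The dashed line marks 0.05. Ccl9 stays above the line throughout, Cxcl14 in 15 of 16 settings, and Ccl6, Ccr1 and Cxcl11 fall below it in many omissions of an array.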

How the data were processed

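Total RNA (400 ng per sample) was converted to cDNA and labelled with biotin for 1-colour arrays, as the labels' protocols state. The authors deposited log2 values. Per the submitters' processing notes, oligo and RMA were used, and their versions, their settings and the genome build are not stated there or in the labels. The table had 41345 probe sets and 0 columns of other samples, with no detection calls or batch information. Platform annotation gave 1 symbol to 23521 probe sets (22180 genes), several to 1814 and none to 16010. All 53 members matched RefSeq by Entrez identifier with the same symbol, and 52 had 1 probe set. RefSeq gave promoter windows for 39 members.

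Blastema was compared with uninjured digit by limma 3.58.1 (R 4.3.3), lmFit and eBayes, with no covariate or filter, two-sided, Benjamini-Hochberg over 22180 genes. Most gene names in the text follow a rule: members that passed, 14 fixed by name, and the rest by value. Per list the rule names the 2 called genes with the largest change or the smallest p. List genes outside this rule were named with results known, among them Krt14, Cd163, Ly6g, Lcn2, S100a9, Cd207, Lyve1, Prox1, Il1a, Pf4 and Ppbp. The members, the 19 lists and the tests were chosen with earlier results of these data known. Alternatives were a replicate block, 2 level filters, mean probe sets, trend and robust variances, array weights, 2 scalings and omission of arrays. On simulated data over the same 22180 genes (50 changed at each size), the step recovered 48% of genes changed by 0.5, 82% at 1 and 100% at 2 and 3 on the log2 scale, with 9 of 174 calls unchanged genes. Plots used matplotlib 3.10.9 under Python 3.11.15.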

Additional observations from a re-analysis of the deposited data

Results flagged for a closer look

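The members with an unadjusted limma p below 0.05 or fixed by name, 23 in all, were searched for arrays far from their group. In 2 of them 1 uninjured array lay far from the other 3. Chance alone sets about 1 in 20 such groups apart, a rate for groups without equal values. Cxcl1 was at 4.31 on uninjured array 3, with the other uninjured arrays at 4.83 to 4.87. Cxcl13 was at 5.48 on uninjured array 4, with the others at 5.30 to 5.31 and uninjured arrays 1 and 3 equal. Neither gene passed the test, and both had group means under the background level.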

How the results depend on the processing

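With the replicate number as a block, 295 genes were higher and 304 lower, with 1 member higher (Ccl9, adjusted p = 0.0489) and 0 lower; Cxcl14 had 0.0557. Same-numbered deviations correlated at 0.29, 0.15 and -0.07, and those of differently numbered arrays at -0.22 to 0.14. So few pairs cannot tell whether the numbers pair the arrays, and the labels do not say. Keeping only genes above the background level left 25 members, of which 3 were higher. Scaling to the reference genes gave 604 higher genes, 2 higher members and a members' median of -0.062. Scaling to the array median gave a members' median of 0.043, and array weights 0.11. Omitting both arrays numbered 1 left 0 members lower. Over the 7 omissions of 1 array, 457 to 1286 genes were higher and 365 to 1009 lower, with 2 to 6 members higher, 0 to 1 lower, and a members' median of 0.057 to 0.112. Ccr3 passed without blastema array 1 (0.0323) and with array weights (0.0275).

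Apart from the members' median above, signs changed only in members that did not pass in any setting run. Scaling to the reference genes changed the sign of 11 members, among them Ackr3 (-0.084), Ccl27a (-0.14), Ccr2 (-0.044) and Cxcr2 (-0.089), and scaling to the array median that of 3. By construction these scalings lower every gene by 0.14 and 0.035. The block changed 7, among them Cxcl12 (0.028), Ackr3 (-0.013) and Ccr2 (-0.015). Ccl27a was also -0.095 with the mean of its probe sets, -0.029 with array weights, -0.031 with median scaling, and -0.093 without both arrays numbered 1. Over the single omissions, which changed 1 to 7 members each, Cxcl12 ran between -0.25 and 0.028, Ackr3 between -0.013 and 0.11, Ccl27a between -0.083 and 0.089, Ccr2 between -0.015 and 0.14, and Cxcr2 between -0.043 and 0.18. Those shifts follow from the smaller sets of arrays. Signal near background limits 28 of the 53 members.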

Other observations

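3 chemokine groups are read by probe sets that list several near-identical genes, and these probe sets were not used for the 53 members. The 9 probe sets of Ccl21, the lymphatic ligand of CCR7, were all lower in blastema, with log2 fold changes of -0.62 to -0.40, with means of 7.19 to 7.31 in blastema and 7.59 to 7.92 in uninjured digit. Several of them have identical values on all 7 arrays, so they are not 9 separate measurements. The groups overlapped in each of the Ccl21 probe sets, they share their target genes, and no test was run on them. The lymphatic endothelial markers Lyve1 (0.12) and Prox1 (-0.07) did not pass in limma (adjusted p = 0.793 and 0.782). The 13 probe sets of Ccl19, the other CCR7 ligand, differed by -0.09 to 0.18, and the 11 of the Ccl27 group by -0.01 to 0.18. These sets also hold probe sets with identical values. Some of the Ccl27 group repeat the values of the member Ccl27a and are no further measurement of it. The receptor gene Ccr7 itself differed by 0.24 (adjusted p = 0.204).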
